A study of Mus musculus with 8 samples.

Results

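Collagens are the triple-helical proteins of the extracellular matrix, and each is encoded by a Col gene for 1 of its chains. The collagen genes were taken from the read-count table of mouse first molar enamel organs as every protein-coding row named Col, a number, a and a number, without Col17a1. The rule gave 43 genes of the 54532 in the table, of which 11 encode fibrillar collagens, 9 network collagens, 9 fibril-associated collagens and 14 other types. The samples were untreated wt C57BL/6 pups at postnatal day 5 (P5), the secretory stage of enamel formation, and at day 12 (P12), the maturation stage. Each library pooled 5 pups, with 4 libraries per age, numbered 1, 3, 4 and 5 at P5 and 1 to 4 at P12. A pool averages its pups, so the spread between libraries is a spread between pools.

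Fibrillar collagens assemble into the banded fibrils of dentin, bone, ligament and connective tissue, and type I is the main protein of dentin and bone. Network collagens form sheets, above all type IV in basement membranes. Fibril-associated collagens sit on the surface of fibrils, and type VI forms beaded filaments between cells and fibrils. Enamel is a mineralized tissue whose matrix is built from amelogenin and related proteins and not from collagen. Collagen transcripts of a molar are known from odontoblasts, dental and periodontal fibroblasts and bone cells, while epithelia contribute mainly chains of basement membranes and anchoring fibrils.

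Total counts were 16574548 to 20262601 in the P5 libraries and 17588152 to 22013456 in the P12 libraries. They carried the enamel matrix transcript Amelx at mean normalized counts of 2705300 at P5 and 50552 at P12. The sample labels describe the cells as of epithelial origin, yet the odontoblast transcript Dspp had a mean normalized count of 158560 at P5 and 167050 at P12 (log2 fold change 0.08, adjusted p = 0.64). Soft tissue of the pulp was removed before extraction, and which cells the Dspp and collagen counts came from was not tested. The cartilage gene Matn1 and the mesenchymal gene Tcf21 had no count in any library, but other genes of the same marker lists did. Mean normalized counts at P5 and P12 were 1092 and 464 for the cartilage marker Sox9, and 15.2 and 50.7 for Acan. They were 4412 and 2217 for the mesenchymal marker Pdgfra, and 2765 and 8011 for Lum. In bulk RNA, fewer cells of a type and less RNA per cell cannot be told apart.

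Several collagen IV gene pairs lie head to head in the genome. The bases shared by Col4a1 and Col4a2 are shown because their transcript levels and ratio are compared here. Col4a1 on the minus strand and Col4a2 on the plus strand overlap by 22 bases in their first exons, at chr8:11312805-11312826 of GRCm38. Col4a4 on the minus strand and Col4a3 on the plus strand lie 71 bases apart, at chr1:82586850-82586920, and Col4a6 and Col4a5 on chromosome X lie 1308 bases apart. Capitals mark GGGCGG, the letters of a GC box, and the run is given 5′ to 3′ on the plus strand.
Col4a1 and Col4a2, shared bases: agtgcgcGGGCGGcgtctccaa
GGGCGG or its reverse complement CCGCCC was found in 21 of 34 collagen genes (61.8%) within the 250 bases before the RefSeq start, and in 42.7% of 17492 protein-coding genes with such a window. CCAAT, searched on both strands, was found in 32.4% of the collagen windows and 36.3% of all, and TATAAA in 11.8% and 12.4%. Matches are letters only, and the 3 motifs were counted independently of each other.

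Collagen III, V, VI, XII and XVI transcripts were higher at P12, while the far more abundant collagen I transcripts were not. Of the 40 collagen genes with enough counts to be tested, 18 were higher and 7 lower at P12 at an adjusted p-value under 0.05, and 15 passed in neither direction. Over all 16440 genes tested, 28.8% were higher and 28.4% lower. The collagen share called higher was 45% and the share called lower 17.5%, with a median log2 fold change of 0.28 beside 0.01 over all genes. In 15 of the 40 all P12 libraries lay above all P5 libraries, and in 6 all lay below, while among all genes this held for 26.0% and 26.6%. Scaling by total count alone, which raised the median of all genes by 0.38, gave 24 collagen genes higher and 5 lower. The other 3 genes, Col4a3, Col19a1 and Col6a6, had at most 23, 12 and 14 counts in any library.

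**Figure D1:**
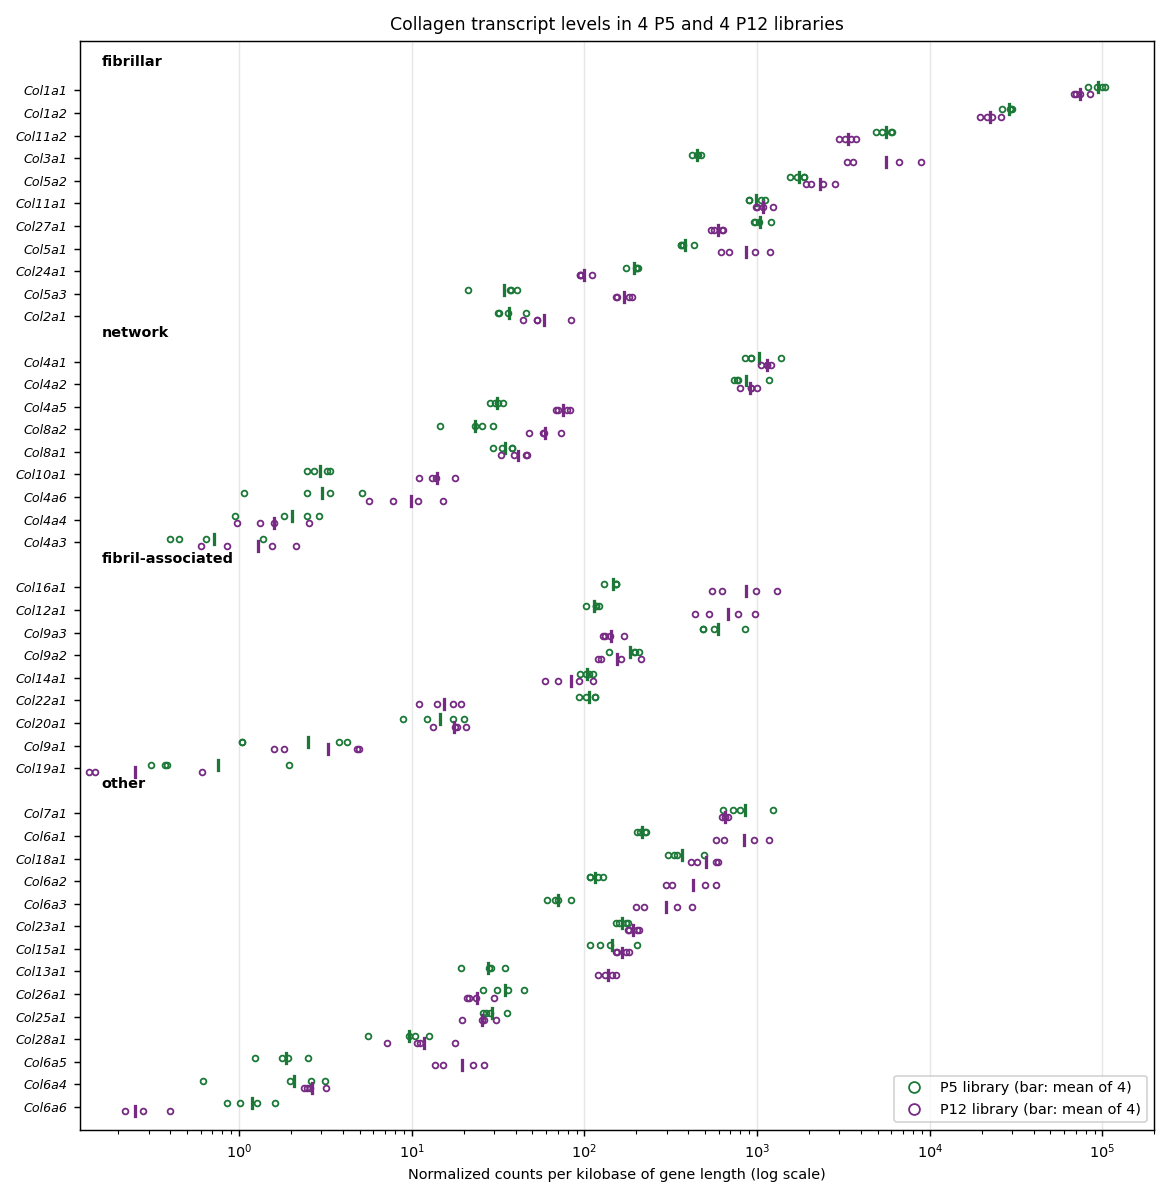
Normalized counts per kilobase of gene length on a log axis for the 43 collagen genes by class, with open circles for the 8 libraries (green P5, purple P12) and bars for the means of 4. Col1a1 and Col1a2 lie to the far right at both ages, and Col3a1 moves from a mean of 450 to 5594 normalized counts per kilobase.

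The chains of collagen I led at both ages, Col1a1 with 94509 and Col1a2 with 28743 normalized counts per kilobase at P5. Collagen I is a heterotrimer with 2 products of Col1a1 to 1 of Col1a2. Col1a1 (chromosome 11, 94936224 to 94953042) had normalized counts of 611480, 651590, 539990 and 677990 in P5 replicates 1, 3, 4 and 5 and of 558460, 462390, 487030 and 447420 in P12 replicates 1 to 4. The ages overlapped, and the log2 fold change was −0.34 (SE 0.14, adjusted p = 0.056). Without P12 replicate 1, P12 replicate 4 or P5 replicate 4, the adjusted p was 0.034, 0.044 and 0.047, and with all 8 libraries DESeq2 (adjusted p = 0.0019), limma-voom (0.01) and the fit with no filter on low counts (0.025) also called it lower. Col1a2 (chromosome 6, 4504814 to 4541544) fell from 357160 ± 21578 to 278600 ± 33217 normalized counts (SD, n = 4; log2 fold change −0.36, SE 0.13, adjusted p = 0.033). Its call was lost without P12 replicate 2 (adjusted p = 0.052), P12 replicate 3 (0.10), P5 replicate 1 (0.069) or P5 replicate 3 (0.075), and under total count scaling the log2 fold changes of Col1a1 and Col1a2 were 0.032 and 0.019. The Col1a1 to Col1a2 ratio per kilobase was 3.28 at P5 and 3.33 at P12, a difference of 0.02 in log2 (exact permutation test, two-sided p = 0.69).

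Collagen I made up 87.9% to 88.8% of all collagen counts at P5, and 78.0% to 82.7% at P12. As a share of all counts, Col1a1 and Col1a2 together took 4.52% ± 0.41 at P5 and 4.60% ± 0.64 at P12 (SD, n = 4). The other 41 collagen genes took 0.594% ± 0.053 and 1.14% ± 0.31. These shares move with the counts that other genes take, and the 2 ages did not overlap for the other collagens. All 43 genes together took 5.11% and 5.74%, or 7.36% and 6.55% with the 20 most abundant genes that are not collagens left out of the total, so the order of the ages turned. No test was made on sums over the collagen genes.

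**Figure D2:**
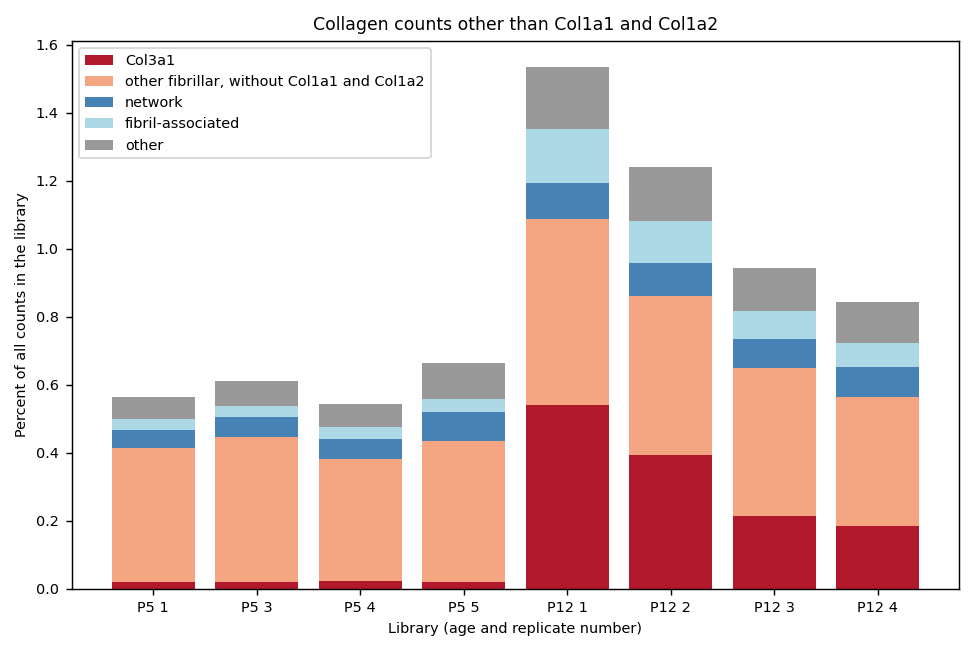
Percent of all counts in each library on collagen genes other than Col1a1 and Col1a2, stacked by Col3a1, other fibrillar, network, fibril-associated and other collagens. The P5 bars reach between 0.543% and 0.662%, and the P12 bars between 0.842% and 1.53%, with Col3a1 alone at 0.183% to 0.539% in P12.

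Collagen III, the homotrimer that copolymerizes with collagen I in extensible tissues, showed the largest rise of the fibrillar class. Col3a1 (ENSMUSG00000026043, chromosome 1, 45311538 to 45349706) had 4484, 4109, 4672 and 4393 normalized counts in P5 replicates 1, 3, 4 and 5. At P12 it had 86935, 64842, 35470 and 32390 in replicates 1 to 4. Every P12 library was above every P5 library, and P12 replicates 1 and 2 were well above 3 and 4. The log2 fold change was 3.64 (SE 0.29, adjusted p = 1.4e-06), a 12.4-fold higher mean, and it was between 3.32 and 4.03 in the 18 alternative fits. Col3a1 took 0.357% to 0.475% of collagen counts at P5 and 3.86% to 7.71% at P12, and its rank among collagen genes per kilobase went from 11 to 3.

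Collagen V is a minor fibrillar collagen that starts and limits the growth of collagen I fibrils, and all 3 of its genes rose. Col5a1 (chromosome 2, 27886425 to 28039514) had 3061, 3172, 3066 and 3659 normalized counts at P5 and 10049, 8290, 5843 and 5256 at P12 (log2 fold change 1.18, SE 0.18, adjusted p = 0.00017). Col5a3 (chromosome 9, 20770050 to 20815067) had 278, 256, 252 and 145 at P5 and 1288, 1241, 1053 and 1032 at P12 (2.32, SE 0.17, adjusted p = 5.7e-07). The ages were apart in both genes, and in Col5a3 the P12 libraries were within 1.25 times of each other, against 1.91 times in Col5a1. Col5a2, the common partner chain, had the highest level of the 3 and the smallest rise, from 16771 ± 1425 to 22116 ± 3877 normalized counts (SD, n = 4; log2 fold change 0.40, adjusted p = 0.015). The Col5a2 call was lost in the 6 libraries whose numbers occur at both ages (0.33, adjusted p = 0.085). About 2.5% of the exonic bases of Col5a1 were shared with antisense genes that had at most 50 counts.

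The fibrillar genes that fell were Col24a1, Col27a1 and Col11a2, beside Col1a2. Col24a1, known from developing bone, had 1539, 1558, 1327 and 1512 normalized counts at P5 and 844, 723, 719 and 727 at P12 (log2 fold change −0.98, SE 0.08, adjusted p = 1.1e-06). Col27a1, known from cartilage, had 12665, 13326, 12436 and 15647 at P5 and 7309, 7059, 8262 and 8113 at P12 (−0.81, SE 0.09, adjusted p = 2e-05). Col11a2, a chain of collagen XI, had 36254, 41235, 33238 and 40816 at P5 and 25662, 22003, 24037 and 20399 at P12 (−0.72, SE 0.10, adjusted p = 0.00014). None of these 3 overlapped between the ages, and each kept its direction and call in all 18 alternative fits. Per kilobase, Col11a2 had rank 3 at P5 (5546 normalized counts) and rank 4 at P12 (3371), while Col27a1 went from rank 5 to 14.

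Col11a1, which encodes another chain of collagen XI, did not pass the test (log2 fold change 0.12, SE 0.10, adjusted p = 0.33), with ranges of 11500 to 14081 and 12606 to 15789 normalized counts. Col2a1, the main collagen of cartilage, was higher at P12 (log2 fold change 0.68, SE 0.19, adjusted p = 0.009), but its ranges of 293 to 424 and 410 to 772 normalized counts overlapped. The summed level of 6 cartilage markers was 1277 to 1408 at P5 and 679 to 809 at P12. Of the 3 that were tested 1 was higher and 1 lower, beside 28.8% and 28.4% of all genes. Sox9 made up most of this sum and fell (log2 fold change −1.24, adjusted p = 3.9e-06). Acan, at means of 15.2 and 50.7 normalized counts, rose (1.72, adjusted p = 0.0031).

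**Figure D3:**
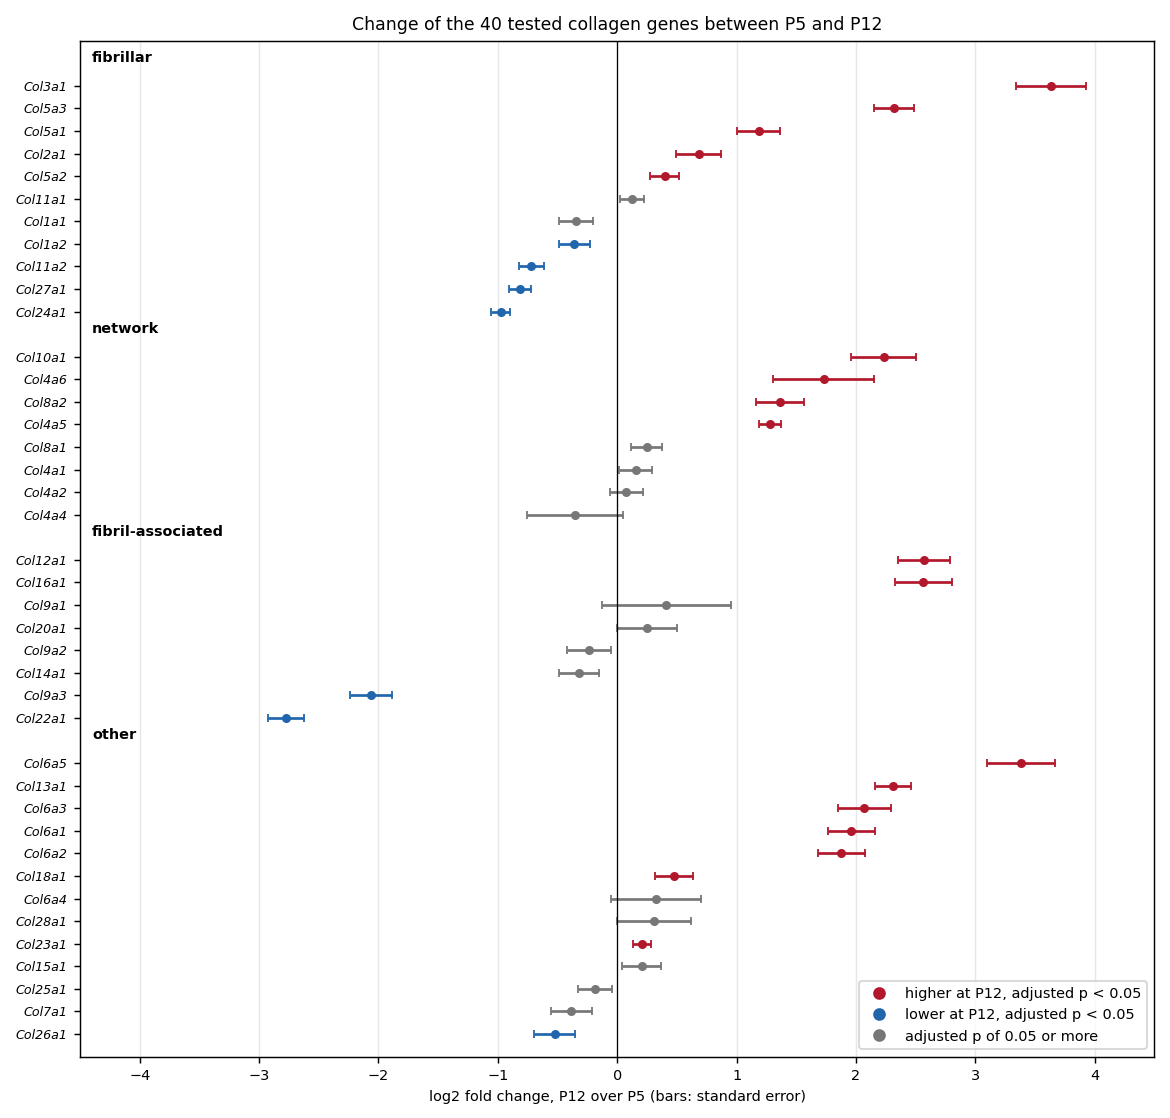
Log2 fold change of P12 over P5 with its standard error for the 40 tested collagen genes, ordered by size within each class (red higher, blue lower, grey not past the threshold). The values run from −2.78 for Col22a1 to 3.64 for Col3a1, and no network collagen is called lower.

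Among the network collagens the main basement membrane chains did not pass the test, and 4 others rose. Col4a1 (chromosome 8, 11198423 to 11312826) had 6338, 6866, 6915 and 10319 normalized counts at P5 and 8932, 8546, 7873 and 8530 at P12 (log2 fold change 0.15, SE 0.14, adjusted p = 0.35). Col4a2 (chromosome 8, 11312805 to 11449287) had 4849, 5041, 5161 and 7733 at P5 and 6625, 6086, 5240 and 6076 at P12 (0.08, SE 0.14, adjusted p = 0.67). P5 replicate 5 was the high library in both, and without it the genes were called higher at P12 (log2 fold change 0.33, adjusted p = 0.003, and 0.25, adjusted p = 0.026). In the same library the summed level of 8 endothelial markers was 4284, against 3296 to 3525 in the other P5 libraries and 6702 to 7344 at P12. All 8 markers were called higher at P12, beside 28.8% of all genes. Most of the 17 listed basement membrane partners were also highest at P5 in replicate 5, which held for 31.8% of all tested genes. Lama5 (12307, others at P5 6758 to 7691) and Hspg2 (27375, others 18548 to 20590), both called lower at P12, were among them. Lama2 lay within the range of the others. Only Gpc1 (7951, others 10011 to 10791) and Pxdn (2579, others 2661 to 3048) were lowest in this library. The part of the endothelial signal in the collagen IV values was not tested.

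Col4a5 and Col4a6 encode chains of a second collagen IV network that is known from some epithelial basement membranes. Col4a5 had 211, 227, 204 and 191 normalized counts at P5 and 553, 536, 460 and 475 at P12 (log2 fold change 1.28, SE 0.09, adjusted p = 5.9e-07). Col4a6 was rarer and more variable, with 41.1, 26.8, 19.8 and 8.47 at P5 and 86.5, 120.7, 62.1 and 45.2 at P12 (1.73, SE 0.42, adjusted p = 0.0043). Both were apart between the ages, with the lowest P12 library of Col4a6 close to the highest P5 library. Col4a4 was counted 9 to 29 times in each library (log2 fold change −0.35, adjusted p = 0.47), and Col4a3 3 to 23 times.

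The short-chain collagens of the network class also differed between members. Col8a2 rose from 104 ± 28 to 266 ± 48 normalized counts (SD, n = 4; log2 fold change 1.37, SE 0.20, adjusted p = 0.00015). Its partner Col8a1 had 232 to 300 at P5 and 258 to 365 at P12 (log2 fold change 0.25, adjusted p = 0.13), and was called only without P12 replicate 3 (0.34, adjusted p = 0.037) among the libraries left out. Col10a1, the collagen of hypertrophic cartilage, was counted 6, 9, 8 and 8 times at P5 and 56, 66, 37 and 43 times at P12 (log2 fold change 2.23, SE 0.27, adjusted p = 3.5e-05). At P12 it had 13.9 normalized counts per kilobase, against 59.3 for Col8a2 and 75.3 for Col4a5.

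Of the fibril-associated class, Col12a1 and Col16a1 rose 5.94- and 5.91-fold, and Col22a1 and Col9a3 fell. Col12a1, a collagen of dense connective tissue that includes ligament, had 1840, 1769, 1769 and 1555 normalized counts at P5 and 14773, 11774, 7982 and 6672 at P12 (log2 fold change 2.57, SE 0.22, adjusted p = 1.9e-06). Col16a1 had 1025, 1023, 1031 and 872 at P5 and 8772, 6645, 4241 and 3706 at P12 (2.57, SE 0.24, adjusted p = 4.2e-06). In both genes the P5 libraries were close together, and the P12 libraries differed by 2.21 and 2.37 times, with replicate 1 highest and 4 lowest.

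Col22a1, known from tissue junctions such as that of muscle and tendon, showed the largest fall of all collagen genes. It had 938, 857, 1066 and 1055 normalized counts at P5 and 160, 177, 102 and 130 at P12 (log2 fold change −2.78, SE 0.15, adjusted p = 5.7e-08). The 4 P12 libraries were all far below P5, and the mean at P5 was 6.89 times that at P12. The summed level of 7 skeletal muscle markers was 778 to 1297 at P5 and 808 to 1622 at P12, so it overlapped between the ages. Its members did not move together. Of the 6 that were tested 2 were higher and 4 lower, beside 28.8% and 28.4% of all genes. Myh4 rose (log2 fold change 1.91, adjusted p = 0.00023), while Acta1 fell (−1.34, adjusted p = 9.6e-05). The part of muscle in the Col22a1 counts was not tested.

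Col9a3, a chain of collagen IX, had 1885, 1874, 2157 and 3265 normalized counts at P5 and 504, 494, 654 and 543 at P12 (log2 fold change −2.07, SE 0.17, adjusted p = 2e-06). P5 replicate 5 was highest, and without any single library the log2 fold change lay between −2.16 and −1.85. Of its exonic bases, 6.07% were shared with the antisense gene Tcfl5, which had 13 to 94 counts. The other collagen IX chains did not pass the test. Col9a2 had 569 ± 93 and 481 ± 133 normalized counts (SD, n = 4; log2 fold change −0.24, adjusted p = 0.29, and −0.44, adjusted p = 0.031 without P12 replicate 1). Col9a1 was counted 4 to 34 times.

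Col14a1, which binds collagen fibrils like Col12a1, had 664 to 791 normalized counts at P5 and 491, 415, 649 and 789 at P12 (log2 fold change −0.32, adjusted p = 0.12). Here P12 replicates 1 and 2 were the low ones, opposite to Col12a1, and without P12 replicate 4 the gene was called lower (−0.50, adjusted p = 0.0042). Col20a1 did not pass the test (0.25, adjusted p = 0.42), and Col19a1 had 1 to 12 counts.

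Among the remaining types, the rises were largest in Col6a5, Col13a1 and the main collagen VI genes. Col6a1, Col6a2 and Col6a3 encode the chains of the main collagen VI monomer, and their P12 means were 3.89, 3.68 and 4.19 times the P5 means. Col6a1 had 992, 915, 879 and 988 normalized counts at P5 and 5145, 4191, 2817 and 2532 at P12 (log2 fold change 1.96, SE 0.20, adjusted p = 7.4e-06). Col6a3 had 810, 722, 837 and 1006 at P5 and 5052, 4092, 2642 and 2365 at P12 (2.07, SE 0.22, adjusted p = 1.3e-05). Col6a2 changed alike (1.88, SE 0.19, adjusted p = 9.7e-06), and none of the 3 genes overlapped between the ages.

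The alternative collagen VI chains went their own ways at much lower levels. Col6a5 had 11.6, 16.8, 23.7 and 18.0 normalized counts at P5 and 247, 213, 128 and 144 at P12 (log2 fold change 3.38, SE 0.28, adjusted p = 1.8e-06). Col6a4 was counted 4 to 32 times and did not pass the test (0.33, adjusted p = 0.48). Col6a6, with 7 to 14 counts at P5 and 1 to 5 at P12, was below the filter.

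Col13a1, a collagen with a membrane-spanning segment, had 130, 159, 133 and 88.9 normalized counts at P5 and 666, 608, 551 and 701 at P12 (log2 fold change 2.31, SE 0.15, adjusted p = 2.5e-07). The P12 libraries were within 1.27 times of each other, and the ages were far apart. The related transmembrane collagens Col23a1 (log2 fold change 0.21, adjusted p = 0.039, 869 to 1030 against 1019 to 1181 normalized counts) and Col25a1 (−0.19, adjusted p = 0.28) changed little, and the call of Col23a1 was lost without P12 replicate 1, P12 replicate 2, P5 replicate 3 or P5 replicate 4 (adjusted p between 0.10 and 0.12).

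Basement membrane zone collagens of the remaining types showed small differences. Col7a1, which forms anchoring fibrils under epithelia, had 6537, 8189, 7511 and 12776 normalized counts at P5 and 6665, 6446, 6719 and 7021 at P12 (log2 fold change −0.38, SE 0.17, adjusted p = 0.074, and −0.50, adjusted p = 0.023 without P5 replicate 1). P5 replicate 5 stood well above the rest, and with single libraries left out the log2 fold change of Col7a1 lay between −0.505 and −0.149. Col18a1, whose product carries endostatin, had 2135, 2308, 2407 and 3442 at P5 and 4158, 4072, 2918 and 3136 at P12 (0.47, SE 0.16, adjusted p = 0.024), overlapped between ages and lost its call without P12 replicate 1 or 2 or P5 replicate 1, 3 or 4 (adjusted p of 0.069 to 0.077). Its relative Col15a1 did not pass the test (0.20, adjusted p = 0.30), but was called higher without P5 replicate 5 (0.41, adjusted p = 0.0061).

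Col26a1 was the 1 called fall of the remaining types, with 212 to 363 and 171 to 246 normalized counts (log2 fold change −0.52, SE 0.17, adjusted p = 0.022). The ages overlapped, and the call was lost without P12 replicate 2 (adjusted p = 0.062), P12 replicate 3 (0.054), P5 replicate 3 (0.053) or P5 replicate 5 (0.071), and under total count scaling (0.50). Col28a1 did not pass the test (0.31, adjusted p = 0.42).

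The rise of the connective tissue collagens was uneven among the P12 libraries. Of the 18 collagen genes called higher, 16 had P12 replicates 1 and 2 both above 3 and 4, which held for 34.3% of the 4735 genes called higher. In 14 replicate 1 was the highest, against 26.1% of the genes called higher. This was not confined to the rises, since replicate 1 was highest in 26 of all 40 tested collagen genes, against 24.55% of all tested genes. In 9 of the 18 the highest P12 library was at least 1.9 times the lowest, namely Col3a1, Col5a1, Col12a1, Col16a1, Col6a1, Col6a2, Col6a3, Col6a5 and Col4a6. None of the 7 genes called lower had such a spread. How many of all genes had it was not counted.

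Sums of marker genes of other tissues are given beside these genes, with counts of called markers. Over all genes tested, 28.8% were called higher and 28.4% lower. The tendon and periodontal ligament markers Scx, Tnmd, Mkx, Postn and Aspn were all higher at P12, and their summed level was 1518 to 1743 at P5 and 30181, 27606, 15564 and 12615 in P12 replicates 1 to 4. Fibroblast markers, of which 7 of 9 tested were higher and 1 lower, summed to 6936 to 8793 at P5 and to 16459, 15158, 11489 and 10904 at P12. Oral mucosa keratins and Sprr1a, all 6 higher, summed to 830 to 1621 at P5 and to 48125, 59776, 39086 and 12129 at P12. Osteoclast markers, all 6 higher, summed to 1400 to 2389 and to 8894, 10873, 6816 and 4389. Osteoblast markers, 5 of 7 higher and 1 lower, summed to 19759 to 27693 and to 41890, 45423, 37435 and 32377. In 8 of the 14 marker lists the sum was higher in P12 replicates 1 and 2 than in 3 and 4, namely in these 5 and in those of leukocytes, Schwann cells and erythroid cells. The sum of the enamel epithelium markers, 6 of 12 higher and 5 lower, stood in the opposite order. It was 5076800 to 5714900 at P5 and 881540, 1018800, 1179800 and 1340100 in P12 replicates 1 to 4. Ambn, Mmp20, Klk4 and Amtn had the order of this sum, and the other members did not. Krt14 (163770, 178110, 163270 and 131210) and Krt5 (130730, 141450, 135750 and 123260) were lowest in P12 replicate 4. Postn made up most of the ligament sum, and Scx in the ligament list did not have the order of that sum (504, 381, 426 and 431 normalized counts). Pericyte markers, 5 of 6 higher, summed to 3668 to 4470 at P5 and to a narrow 9623 to 10817 at P12, and odontoblast markers, none higher and 2 of 5 lower, to 166400 to 215530 and 181630 to 210240. The part of these markers in the collagen differences was not tested.

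**Figure D4:**
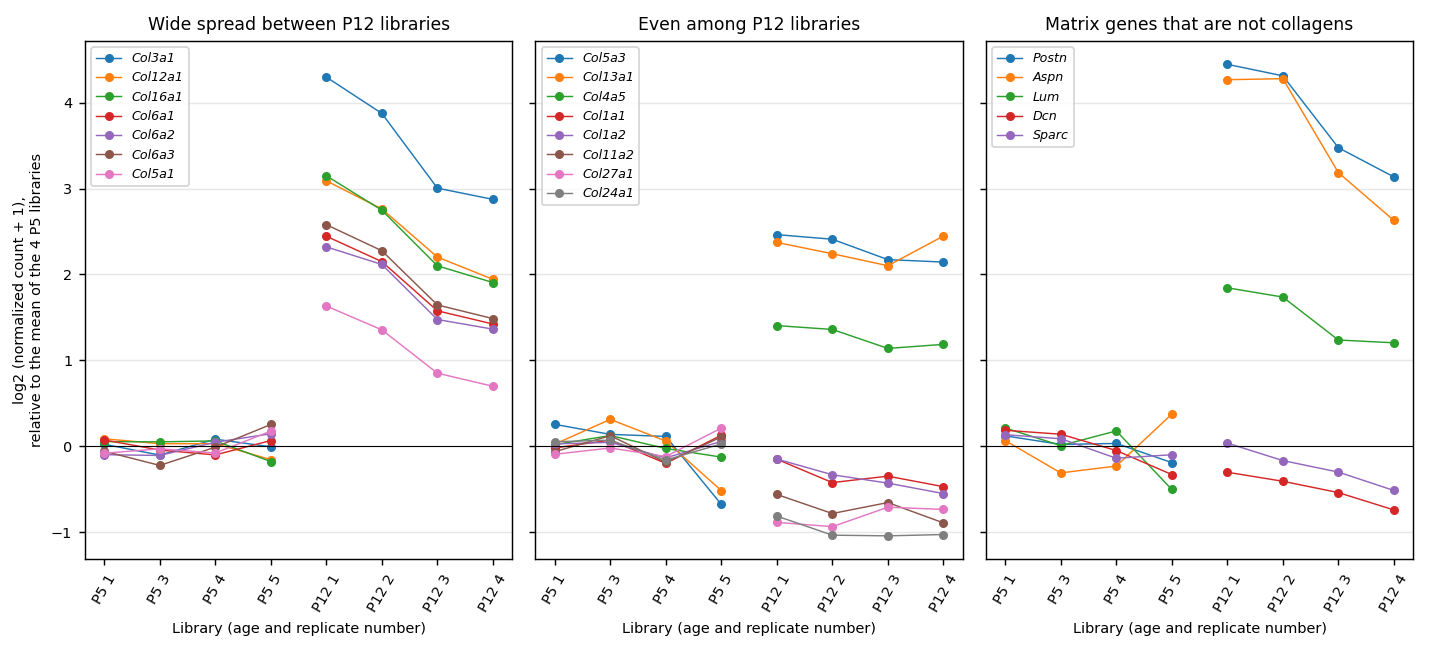
Normalized counts in each library as log2 of the count plus 1, relative to the mean of the 4 P5 libraries, for collagens with a wide spread at P12 (left), collagens with an even level (middle) and matrix genes that are not collagens (right), with lines that only join the points of a gene. In the left and right panels P12 replicates 1 and 2 lie above 3 and 4, also for Dcn, which was called lower, and Sparc, which was not called. Col5a3 and Col13a1 rose to similar levels in all 4. In the middle panel Col5a3, Col4a5 and Col1a2 also have P12 replicates 1 and 2 above 3 and 4.

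Ratios between chains compare genes within a library and, apart from the pseudocount of 1 count, do not depend on the scaling. Of 16 listed pairs, 15 had both genes tested, and in 8 the ratio of normalized counts per kilobase did not overlap between ages. With 4 libraries against 4 the exact two-sided permutation test cannot give a p below 0.0286, and after adjustment over the 15 pairs these 8 had p = 0.0536, so none passed 0.05. The Col3a1 to Col1a1 ratio was 0.00477 at P5 and 0.0693 at P12, a log2 difference of 3.86. The Col5a1 to Col1a1 ratio had a log2 difference of 1.48, and the Col11a1 to Col5a1 ratio was 2.59 at P5 and 1.28 at P12, a log2 difference of −1.02. Collagen XI chains can join collagen V chains in hybrid molecules, and Col5a1 was the gene of this pair that passed the test.

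Ratios within collagen types and between the fibril-associated collagens were compared in the same way, and none passed after adjustment. Col6a1 to Col6a2 had log2 ratios of 0.90 ± 0.14 and 0.98 ± 0.04 (SD, n = 4, exact permutation p = 0.40), and Col6a3 to Col6a1 had −1.62 ± 0.18 and −1.51 ± 0.04 (exact permutation p = 0.37). The head-to-head pair Col4a1 and Col4a2 had log2 ratios of 0.21 to 0.27 at P5 and 0.26 to 0.41 at P12 (exact permutation p = 0.0571), so the high P5 replicate 5 was high in both genes alike. The pair Col4a5 and Col4a6 ranged from 2.58 to 4.59 and from 2.39 to 3.61 (exact permutation p = 0.37). Without overlap between the ages, but with an adjusted permutation p of 0.0536 each, Col9a3 to Col9a2 was 3.18 at P5 and 0.937 at P12, Col8a1 to Col8a2 was 1.53 and 0.695, and Col5a1 to Col5a2 was 0.218 and 0.367. At the same p, Col4a5 to Col4a1 was 0.0311 and 0.0663. Col14a1 to Col12a1, which belong to different collagens, was 0.915 and 0.126 (adjusted permutation p = 0.0536).

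**Figure D5:**
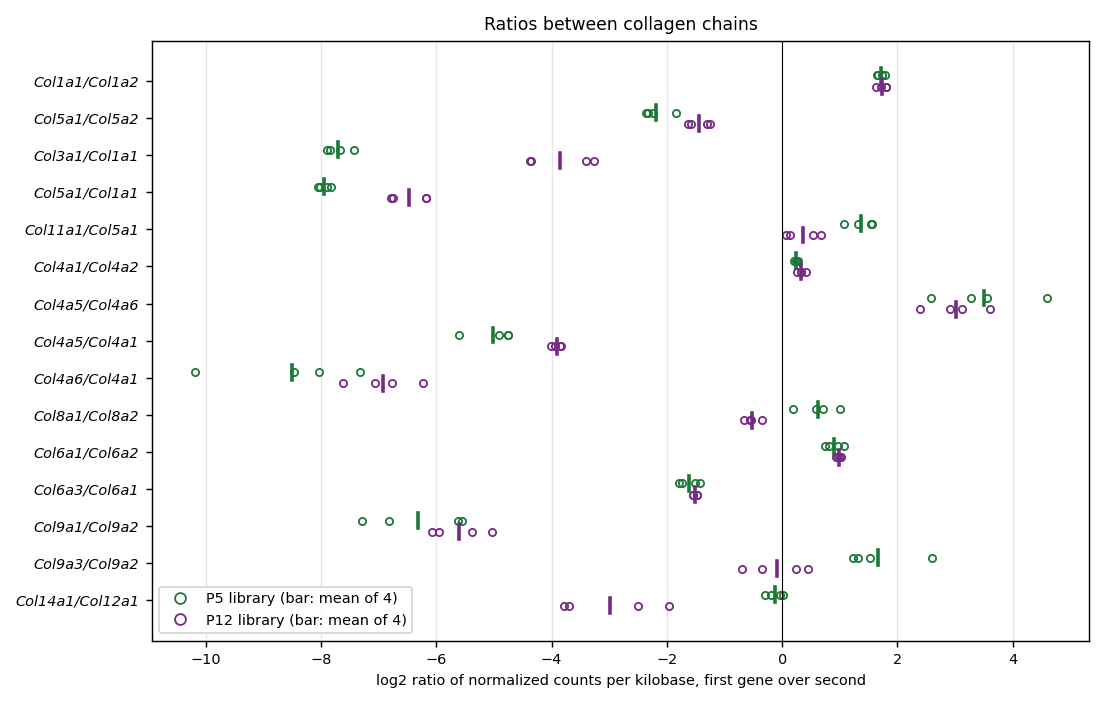
Log2 ratio of normalized counts per kilobase, first gene over second, for 15 pairs of collagen genes in each P5 (green) and P12 (purple) library, with bars for the means of 4. The pair Col1a1 and Col1a2 has means of 1.71 and 1.73, and the pair Col3a1 and Col1a1 has means of −7.71 and −3.85.

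Genes that make and bind collagen were called at shares near those of all genes. Of 80 listed genes of collagen synthesis, crosslinking and binding, 74 were tested, and 24 (32.4%) were higher and 26 (35.1%) lower at P12, beside 28.8% and 28.4% of all genes, with a median log2 fold change of −0.01. Under total count scaling 39 were higher and 18 lower. Of 22 genes of hydroxylation, glycosylation and folding, 5 (22.7%) were higher and 8 (36.4%) lower, against the same 28.8% and 28.4% of all genes. The prolyl 4-hydroxylase subunit P4ha3 rose from 28.0 ± 7.4 to 310 ± 80 normalized counts (SD, n = 4; log2 fold change 3.48, adjusted p = 4.3e-07), and the lysyl hydroxylase Plod2 fell from 7293 ± 769 to 2867 ± 261 (−1.35, adjusted p = 4e-07). The far more abundant subunit P4ha1 (0.04, adjusted p = 0.58) and the collagen chaperone Serpinh1 (−0.22, adjusted p = 0.095) did not pass the test.

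Of 8 tested genes of procollagen cleavage, 4 (50%) were higher and 2 (25%) lower, beside 28.8% and 28.4% of all genes. The C-proteinase gene Bmp1 rose from 4897 ± 179 to 9784 ± 512 normalized counts (SD, n = 4; log2 fold change 1.0, adjusted p = 2.9e-07), and the N-proteinase gene Adamts3 rose likewise (1.0, adjusted p = 8.5e-05). The enhancers of C-proteinase activity fell, Pcolce by 0.44 in log2 (adjusted p = 0.0026) and Pcolce2 by 2.09 (adjusted p = 2.6e-05). Among 5 crosslinking oxidases, with 2 higher and 2 lower, Loxl1 rose from 132 ± 14 to 429 ± 142 (SD, n = 4; 1.71, adjusted p = 4.7e-05) and Loxl4 fell (−0.61, adjusted p = 7.2e-05). Lox itself had 6156 ± 651 and 6021 ± 448 (SD, n = 4; −0.03, adjusted p = 0.77).

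Fibril-binding matrix genes were higher in 8 of 13 tested (61.5%), with 1 lower (7.69%), beside 28.8% and 28.4% of all genes. Postn, a matricellular gene of periosteum and periodontal ligament that also stands among the ligament markers, had 1065 to 1322 normalized counts at P5 and 26557, 24201, 13543 and 10700 at P12 (log2 fold change 3.95, SE 0.28, adjusted p = 4.3e-07). Its P12 libraries stood in the same order as those of Col3a1. Dcn, the decorin gene, was the 1 lower (−0.49, adjusted p = 0.0052), and its ranges overlapped. Of 17 basement membrane partners, 3 (17.6%) were higher and 10 (58.8%) lower. Lama4, a laminin chain of vessels, was 1.11 higher in log2 (adjusted p = 7.6e-06), and Fras1, a gene of the epithelial basement membrane, fell from 10069 ± 867 to 2355 ± 195 normalized counts (SD, n = 4; −2.10, adjusted p = 8.8e-09). Of 9 tested receptors, 2 (22.2%) were higher, with the collagen receptor kinase Ddr2 at a log2 fold change of 1.14 (adjusted p = 5.6e-06), and 3 (33.3%) were lower, with Itga1 at −0.84 (adjusted p = 4.7e-05).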

How the data were processed

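The authors deposited raw integer counts of reads per gene for 8 libraries of polyA-captured RNA, beside gene lengths and positions. Aligner, counting program and strand setting are not given in the sources used here. The submitters' processing notes name CASAVA and mm39, but all 43 collagen genes have the coordinates of GENCODE M21 for GRCm38, which is the build printed here. Columns were matched to libraries by their names.

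The 2 ages were compared by the quasi-likelihood test of edgeR 4.0.16 (R 4.3.3) after filterByExpr and TMM scaling, without covariates. P-values were adjusted by Benjamini-Hochberg over all 16440 tested genes, with 0.05 as the threshold. The standard error is the log2 fold change divided by the root of its F statistic. To obtain normalized counts, each count was divided by its effective library size and multiplied by the mean of these sizes, 19006280. Levels per kilobase use the deposited gene length. Ratios used a pseudocount of 1 count and the exact permutation test over 70 splits. Alternatives were DESeq2 1.42.0, which the study's methods name, limma-voom (limma 3.58.1), other scalings, filters and thresholds, a replicate block and each library left out. The tests were tried on simulated data first.

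The collagen genes and all lists were chosen with earlier results of these data known. Named with full statistics are, in each class, the 3 highest levels per kilobase and up to 3 rises and falls, and in each pathway list the largest rise and fall with P4ha1, Plod2, Serpinh1, Lox, Bmp1 and Pcolce. Marker genes and Dspp, Amelx and Tcfl5 appear outside this rule. No 2 of the libraries of an age were duplicates, since each of the 12 pairs differed beyond sampling noise. Reads carried no molecular identifiers. Each library is 1 pool of pups, so p-values measure the spread between pools. Promoter windows are RefSeq's for GRCm38.p6, and 9 collagen genes had no window. Protein sequences were not used here. Figures were drawn with matplotlib 3.10.9.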

Additional observations from a re-analysis of the deposited data

Results flagged for a closer look

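In 9 of 152 groups of 4 libraries, the highest or lowest library stood apart by Dixon's criterion of the gap to the nearest library over the range. Chance flags about 1 in 20 groups, or 7.6 of 152. At P5, replicate 5 held 10319 normalized counts of Col4a1 (others 6338 to 6915), 7733 of Col4a2 (4849 to 5161) and 724 of Lama4 (586 to 600), and only 872 of Col16a1 (1023 to 1031) and 16.9 of P4ha3 (30.3 to 32.4). So 5 of the 9 values came from this library. P5 replicate 4 had 325110 normalized counts of Col1a2, against 363910 to 371200 in the others. P12 replicate 1 had 844 of Col24a1, against 719 to 727. Col19a1, with at most 12 counts, had 13.4 normalized counts in P5 replicate 3 (others 2.12 to 2.64) and 4.22 in P12 replicate 2 (0.733 to 1.0).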

How the results depend on the processing

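Of 714 log2 fold changes of collagen genes in 18 alternative fits, 649 kept direction and call, 28 lost the call, 29 gained it and 8 changed sign. Of the 25 called collagen genes, 20 kept their call in every alternative fit that tested them, and the exceptions were Col1a2, Col5a2, Col18a1, Col23a1 and Col26a1. Total count scaling turned Col1a1 (0.032), Col1a2 (0.019), Col14a1 (0.045), Col9a2 (0.145), Col25a1 (0.190) and Col4a4 (0.017), and gave 8885 genes higher and 2330 lower, 39 pathway genes higher and 9 marker genes lower. Requiring also a log2 fold change of 1 or more in size, 1864 genes were higher and 1677 lower, with 2 collagen genes lower, 12 pathway genes higher and 9 lower. Without the 20 most abundant genes that are not collagens, the mean collagen share was 7.36% at P5 and 6.55% at P12, against 5.11% and 5.74% of all counts. DESeq2 called 18 collagen genes higher and 9 lower, and limma-voom 18 and 8. With single libraries left out, collagen genes called higher numbered 16 to 21 and lower 5 to 9. Without both P5 replicate 5 and P12 replicate 4 they were 21 and 7. No filter on low counts gave 18 and 10.

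The replicate numbers 1, 3 and 4 occur at both ages, but same-numbered libraries did not deviate together (correlations of 0.043, 0.0028 and −0.036 over genes). With the number as a replicate block over these 6 libraries, 18 collagen genes were higher and 5 lower, against 19 and 5 in the same libraries without the block. Col9a1 turned to −0.137 with the replicate block and −0.090 without it.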
